A study of Mus musculus with 2 samples.

Results

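The proteasome genes were taken as the protein-coding genes of the GENCODE annotation on chromosomes 1 to 19 whose name starts with Psma, Psmb, Psmc, Psmd, Psme, Psmf or Psmg followed by a digit. The rule used names and no measured value, and it gave 49 genes out of 20722. Open chromatin at these genes was read by DNase-seq in 2 libraries whose tissue label is layer of hippocampus, from male B6CASTF1/J mice aged 25 days, a cross of the C57BL/6J and CAST/EiJ strains. The libraries are biological replicates 1 and 2 of a single untreated group, so there is no contrast between conditions. The labels give each library its own tissue sample but the same donor entry, so they do not settle whether the replicates are separate animals. DNase I cuts open DNA, so regulatory regions appear as peaks of cuts, and short stretches shielded by a bound protein appear as footprints.

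The proteasome is the barrel-shaped protease that degrades proteins tagged with ubiquitin. Its 20S core holds rings of alpha subunits, which gate the channel, around rings of beta subunits, some of which cut proteins, and the 19S cap binds, unfolds and feeds in the substrate. Interferon can make cells swap the catalytic beta subunits for immune ones that favour peptides for antigen presentation, while neurons depend on the constitutive form for synaptic protein turnover.

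Replicates 1 and 2 had 93545 and 79144 peaks and 223251 and 170016 footprints, and the number of cuts behind a peak is unknown. Promoter peaks at the Y-linked genes Ddx3y, Eif2s3y, Kdm5d and Uty were present in replicate 1 and absent from replicate 2, while Xist, the X-inactivation RNA, had 3 promoter peaks in replicate 2 and 0 in replicate 1. On the whole Y chromosome replicates 1 and 2 had 40 and 39 peaks. At these 5 genes replicate 2 went against its label of male, and wherever 1 library is said to be higher, the term used is the library labelled male replicate 2. Of 12 genes chosen as markers of hippocampal neurons, 10 had a promoter peak in both libraries. Of 16 microglia genes 2 had one, of 12 endothelial genes 3, and of 10 lymphocyte genes 0. Among all 20722 genes the share was 62.8%. These are bulk samples, in which fewer cells of a type and less open chromatin per cell cannot be told apart.

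The first question was how many proteasome promoters were open. A promoter peak was a peak that touched 1 kb on either side of an annotated transcription start site (TSS) of the gene. Such a peak was present in both libraries for 46 of the 49 proteasome genes, which is 93.9% (exact 95% interval 83.1 to 98.7, counting error only), against 62.8% of all genes. The interval treats genes as independent draws, which they are not. The genes without a peak in either library were Psma8, Psmb11 and Psme2b. Every gene was open in both libraries or in neither. With the authors' shorter, stricter peak list the count was also 46, against 57.4% of all genes.

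Most proteasome promoters are rich in CpG, a base pair step that is frequent at promoters used in many tissues. The ratio of observed to expected CpG within 500 bases of the principal TSS was at least 0.6 for 40 of the 49, and all 40 had a promoter peak in both libraries. The share among all genes with such a ratio was 94.7%, so the count of the CpG-rich proteasome genes is close to that background. Of the 9 proteasome genes under 0.6, 6 were open, against 32.5% of all genes under 0.6. These 6 were Psmb8, Psmb10, Psme1, Psme2, Psmf1 and Psmg4, the last with a ratio of 0.597 at the edge of the threshold. The ratio of Psmf1 is that of a closed start, since its peak lies at another TSS. The Psmb10 peaks lie downstream of the TSS, and Psme2 shares its peaks with the neighbour Rnf31.

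**Figure D1:**
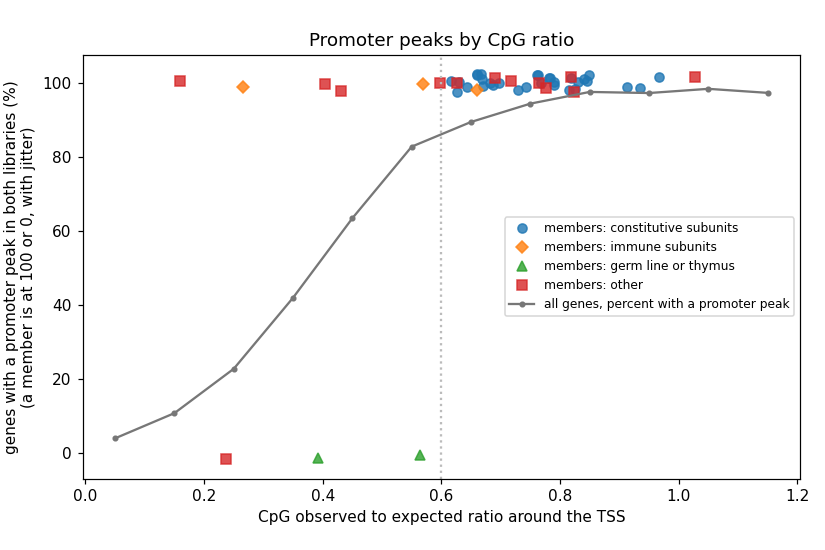
Share of genes whose promoter was open in both libraries against the CpG ratio around the TSS. The line gives all genes in bins of the ratio, and each symbol is 1 proteasome gene, placed at 100 when open in both libraries and at 0 when closed, with jitter. The 31 constitutive subunits lie right of 0.6 and are open, while the 3 closed genes lie left of it.

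The signal at these promoters was then ranked. The value of a promoter is the authors' signal of its highest peak, with a scaling that the sources used here do not give. The 46 open proteasome genes had median values of 2.89 in replicate 1 and 2.52 in replicate 2 (mean 2.70 ± 0.264, SD, n = 2), against 2.27 and 2.15 for all genes open in both libraries. Of the 46, 35 and 31 lay above the median of all genes with a promoter peak in the same library, and 21 and 15 lay in the top 25%. In the bottom 25% lay 1 and 2. The 40 CpG-rich proteasome genes had medians of 3.06 and 2.64, against 2.49 and 2.38 for the other genes that are open and CpG-rich. Replicate 1 had a higher value than the library labelled male replicate 2 in 38 of the 46 (82.6%), against 65.8% of all open genes, and all 46 lay within 2-fold between the libraries. Across the 46 genes the 2 libraries had a Spearman correlation of 0.76, given as a description since the genes share both libraries.

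**Figure D2:**
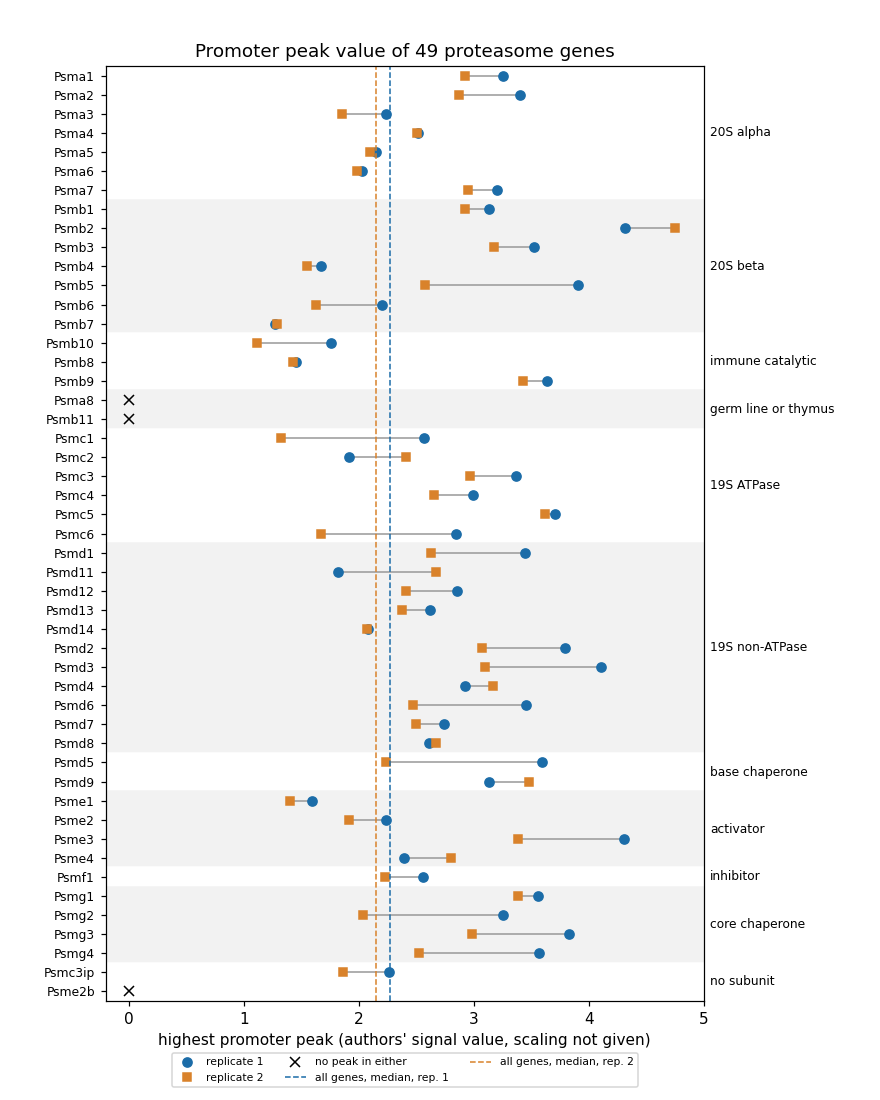
Highest promoter peak value of each proteasome gene in replicate 1 (circles) and replicate 2 (squares), by role, with the medians of all genes open in both libraries as dashed lines. Crosses, drawn at 0, mark genes without a peak, and the horizontal lines join the libraries. Psmb2 has the highest values, 4.31 and 4.75, and Psmb7 is lowest in replicate 1 with 1.27.

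All 7 alpha subunit genes of the core were open in both libraries. Psma1 had values of 3.26 in replicate 1 and 2.92 in replicate 2, Psma2 had 3.40 and 2.87, and Psma7 had 3.20 and 2.95. These 3, like Psma4, stood above the medians of all genes in both libraries. Psma4 had 2.52 and 2.51, Psma3 had 2.23 and 1.86, Psma5 had 2.15 and 2.09, and Psma6 had 2.03 and 1.99. Replicate 1 was higher than the library labelled male replicate 2 in all 7.

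The 7 constitutive beta subunit genes, all open, ranged from 1.27 to 4.31 in replicate 1 and from 1.29 to 4.75 in replicate 2. Psmb2, a structural subunit of the beta ring, had 4.31 in replicate 1 and 4.75 in replicate 2, which placed it at percentiles 95.5 and 98.4 of all promoter values. The catalytic subunits differed. Psmb5, which gives the chymotrypsin-like activity, had 3.91 and 2.57, Psmb6, the caspase-like subunit, had 2.20 and 1.62, and Psmb7, the trypsin-like subunit, had 1.27 and 1.29. Psmb7 thus lay at percentiles 21.4 and 24.8, below the medians in both libraries. Of the structural subunits, Psmb1 had 3.13 and 2.93, Psmb3 3.52 and 3.17 and Psmb4 1.67 and 1.55. The highest peak of Psmb3 lay 978 to 739 bases upstream of its TSS in replicate 1, and the peak over the TSS itself had 2.41 and 2.90. Likewise the highest peak of Psmb1 in replicate 1 lay at its other TSS upstream, and the peak over the principal TSS had 3.04 and 2.93.

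The promoter of Psmb2 held a footprint in both libraries just upstream of its TSS. The stretch is shown because its footprint covers the letters of a CRE, TGACGTCA, bound by CREB and ATF factors and known for activity-dependent genes of neurons, and of a CCAAT box, read in reverse as ATTGG. Both patterns share 1 base. The promoter of Psmb5 is set beside it because its footprint covers part of the letters TGACNNNGC, the antioxidant response element through which NFE2L1 and NFE2L2 are known to raise proteasome genes. Capitals mark bases in a footprint of both libraries, and both are written 5′ to 3′ in the direction of the gene, from GRCm38 (mm10) chr4:126677586-126677629 on the plus strand and chr14:54618023-54618067 on the minus strand.
Psmb2: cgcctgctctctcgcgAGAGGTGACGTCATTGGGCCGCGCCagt
Psmb5: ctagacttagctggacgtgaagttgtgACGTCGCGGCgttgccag
The CRE letters of Psmb2 lie whole within the capitals, centred 19 bases before the TSS. In Psmb5 the middle of the element lies 16 bases before the TSS and its first bases lie outside the footprint.

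The 3 immune subunit genes were open in both libraries, though with their peaks in other places. Psmb8, which replaces Psmb5, had 1.46 in replicate 1 and 1.43 in replicate 2. Psmb9, which replaces Psmb6, had 3.64 and 3.43, and Psmb10, which replaces Psmb7, had 1.76 and 1.12. The Psmb10 peak of replicate 1 reached past the 1 kb window. In replicate 2 a separate peak there, with 1.72, fell outside the window. The Psmb10 values, and medians that include them, thus compare partly different regions. Psmb9 stood above the medians of all genes in both libraries and the other 2 stood below. The medians of the 3 were 1.76 and 1.43, against 2.85 and 2.57 for the 31 constitutive core and cap subunits, a description of 3 genes, of which 1 lies among the higher constitutive ones. With windows of 0.5 kb, in which Psmb10 is not open in both libraries, the mean of the library medians was 2.49 for the immune genes against 2.71 for the constitutive ones, and with 1 kb it was 1.60 against 2.71.

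The position of these peaks differed from that of the constitutive subunits. With peaks required within 0.1 kb of a TSS, a distance chosen after the data were seen, 42 of 49 proteasome genes kept a peak in both libraries, against 56.2% of all genes. Among constitutive subunits 30 of 31 did, the exception being Psmd14, but 1 of the 3 immune genes, Psmb8. Its peak ran from 389 bases before to 10 after the TSS in replicate 1 and from 229 to 10 before it in replicate 2. The Psmb9 peak lay 44 to 443 bases and 184 to 403 bases downstream of the principal TSS. It is the highest promoter peak also of Tap1, the peptide transporter gene of antigen presentation, which starts 38 bases away on the other strand, so that its value cannot be assigned to either gene. All 201 bases around the principal TSS of Psmb9 had an FDR under 0.05 in both libraries. The called peak began 44 bases from the TSS in replicate 1 and 184 bases from it in replicate 2. The start that RefSeq gives for Psmb9 lies inside the peak of replicate 1. The peaks of Psmb10 lay 344 to 1423 bases downstream of the TSS, and in both libraries 0 bases within 100 bases of the TSS had an FDR under 0.05. The CpG ratio of Psmb10 was 0.265, that of Psmb8 0.568 and that of Psmb9 0.659.

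A stretch of the Psmb8 promoter is shown because it holds a footprint in both libraries over the same CRE letters, TGACGTCA, that lie under the Psmb2 footprint. It comes from GRCm38 chr17:34197635-34197694 on the plus strand, written 5′ to 3′ with footprint bases of both libraries in capitals.
Psmb8: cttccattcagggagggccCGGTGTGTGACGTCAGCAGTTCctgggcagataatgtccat
The CRE is centred 125 bases before the TSS. It lay in the window from 250 bases before to 50 after the principal TSS of 2 of the 49 proteasome genes, and both sites were in footprints of both libraries. The letters were in 519 of all 20722 promoters, and 1.25% of all promoters, or 2.00% of the open ones, held them in a footprint of both libraries. The ISRE core, GAAANNGAA, and the GAS letters, TTCCNGGAA, known for interferon response, were not in this window for Psmb8, Psmb9 or Psmb10. The Psmb10 peaks, 344 bases or more downstream of the TSS, lie outside this window. The highest Psmb9 peak starts 44 bases downstream in replicate 1, at the edge of the window, and 184 bases downstream in replicate 2, outside it. For Psmb9 and Psmb10 the absence thus does not cover the sequence under these peaks.

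Other genes of antigen presentation and interferon response were read for comparison. All 12 antigen presentation genes had a promoter peak in both libraries, against 62.8% of all genes and 94.7% of those with a CpG ratio of at least 0.6. B2m, the light chain of class I molecules, had 2.40 and 2.41, and H2-K1, a class I heavy chain, 0.643 and 0.580. Of 16 interferon response genes 9 had a promoter peak in both libraries (56.25%), a share near the 62.8% of all genes. The 7 without, Gbp2, Isg15, Irf7, Bst2, Mx1, Ifit3 and Ifit1, are known as genes that interferon induces, while the receptor gene Ifngr1 had 2.25 and 1.81. The microglia markers Cx3cr1, P2ry12, Tmem119 and Trem2 had no promoter peak in either library, and the summed promoter value of the 16 microglia genes was 3.99 in replicate 1 and 2.68 in replicate 2. The part of such cells in the immune subunit values was not tested.

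The genes known for other tissues were closed. Psma8, the alpha subunit of male germ cells, and Psmb11, the beta subunit of thymic cortical epithelium, had no promoter peak, hence no footprint in a promoter peak, and no distal peak in either library. In their promoters 0 bases within the window had an FDR under 0.05. Of 10 male germ line genes 2 had a promoter peak in both libraries, and Prm1, Prm2 and Tnp1, the packing proteins of sperm chromatin, had none in either. The CpG ratios were 0.564 for Psma8 and 0.392 for Psmb11, below those of all 31 constitutive subunits, whose lowest was 0.617. The share of open promoters by CpG ratio is given above.

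The 6 ATPases of the cap, which unfold substrates, were all open. Psmc5 had 3.70 in replicate 1 and 3.62 in replicate 2, Psmc3 had 3.37 and 2.97, and Psmc4 had 2.99 and 2.66. These were above the medians of all genes in both libraries. The other 3 were less alike between the libraries. Psmc1 had 2.57 and 1.32, and Psmc6 had 2.84 and 1.68, lower in the library labelled male replicate 2. Psmc2 had 1.91 and 2.41, higher in the library labelled male replicate 2. Psmc1 had the largest ratio between the libraries of all 46 genes.

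The 11 other cap subunits were likewise all open. Of the scaffold genes, Psmd1 had 3.45 in replicate 1 and 2.63 in replicate 2, and Psmd2 had 3.79 and 3.07. The lid gene Psmd3 had 4.11 and 3.09, the third highest of the proteasome genes in replicate 1. Psmd4, a ubiquitin receptor, had 2.93 and 3.16. Psmd14, the deubiquitinase that removes the ubiquitin chain, had 2.08 and 2.07, and Psmd7, its partner, had 2.74 and 2.501. Psmd14 stood just below the medians of all genes, and the rest of those named stood above. Of the other lid genes, Psmd6 had 3.46 and 2.48, Psmd12 had 2.85 and 2.41, Psmd13 had 2.62 and 2.37 and Psmd8 had 2.61 and 2.67. Psmd11 had 1.82 and 2.67, and its peak in the library labelled male replicate 2 reached over the TSS, while replicate 1 had separate peaks on either side of it.

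The Psmd6 promoter is shown because its footprint covers the CTCF core letters, CCANNAGGG, of the factor known for chromatin loops. The sequence is GRCm38 chr14:14120996-14121055 on the minus strand, 5′ to 3′ in the direction of the gene, with footprint bases of both libraries in capitals.
Psmd6: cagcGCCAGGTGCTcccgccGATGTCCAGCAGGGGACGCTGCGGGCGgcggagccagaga
The site is centred 42 bases before the TSS. The letters occurred in 4 of the 49 proteasome promoters (8.16%), against 6.12% of all, and that of Psmd6 alone lay in a footprint of both libraries.

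Chaperones, activators and the inhibitor were open as well. Psmd5 and Psmd9, which help assemble the base of the cap, had 3.59 and 2.24 and 3.13 and 3.48. Psmg1 to Psmg4, which help assemble the core, had 3.55 and 3.38, 3.26 and 2.04, 3.82 and 2.98, and 3.57 and 2.53 in replicates 1 and 2, higher in replicate 1 than in the library labelled male replicate 2 in all 4. Psme1 and Psme2, the interferon-induced activator, had 1.60 and 1.40 and 2.23 and 1.91, below the medians of all open genes in both libraries. Psme3, its nuclear relative, had 4.30 and 3.38, and Psme4, known for degrading acetylated histones, had 2.40 and 2.80. Psmc3ip, a cofactor of meiotic recombination that is no subunit, had 2.26 and 1.86. Psme2b, a copy of Psme2 without introns, was closed, with 0 bases under the FDR of 0.05.

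The inhibitor Psmf1 was open away from its principal TSS. Its peak, 2.56 in replicate 1 and 2.23 in replicate 2, lay 2706 to 3005 bases downstream, over a second annotated TSS that RefSeq gives as the start of the gene. Within 1 kb of the principal TSS 0 bases had an FDR under 0.05 in either library. The CpG ratio of 0.159 quoted for Psmf1 is that of the closed start.

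**Figure D3:**
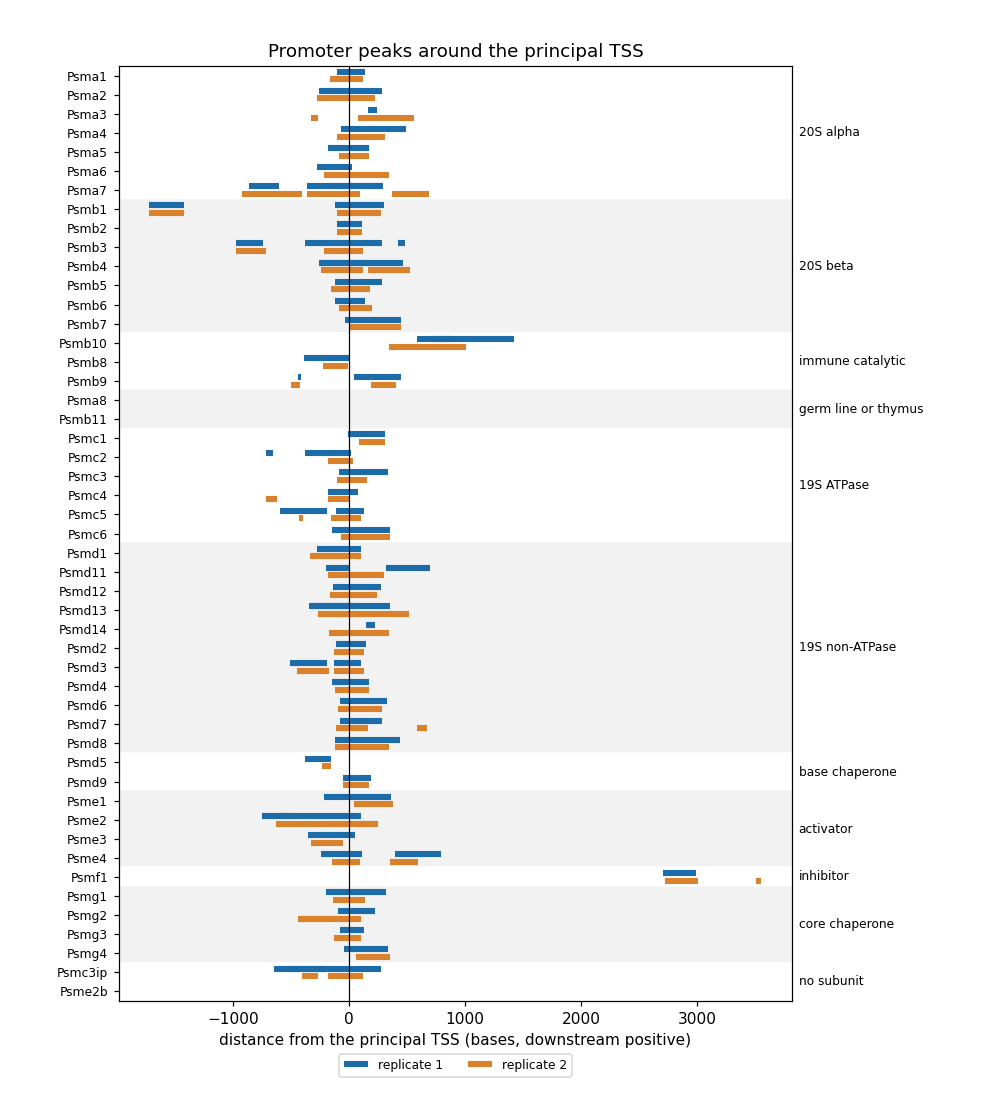
Promoter peaks of each proteasome gene by distance from the principal TSS in bases, with replicate 1 above replicate 2 in each row and genes ordered by role. Most bars cover the TSS. Those of Psmb10 and Psmf1 lie downstream, and Psma8, Psmb11 and Psme2b have none.

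The promoter of Psme3 is shown for its ETS letters, CCGGAAG, the motif with the largest difference in share between open proteasome promoters and all open promoters among the 14 searched, a choice made after the values were seen. The sequence is GRCm38 chr11:101316079-101316138 on the plus strand, 5′ to 3′, with footprint bases of both libraries in capitals.
Psme3: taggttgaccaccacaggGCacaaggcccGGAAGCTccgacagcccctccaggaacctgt
The site is centred 104 bases before the TSS. ETS letters on either strand were in 18 of the 49 proteasome promoters (36.7%), against 11.4% of all promoters. Among promoters with a peak in both libraries they were in 16 of 46 (34.8%), against 16.5% of all such promoters and 19.6% of those that were also CpG-rich. Most of these sites had no footprint. By the middle base of the site, those of Psme3 and Psme4 lay in a footprint in both libraries, 4.08% of the proteasome genes against 1.22% of all and 1.94% of all open promoters. In Psme3 the first bases of the site lie outside the footprint. With the whole site required inside a footprint, 0 proteasome genes remained, against 0.526% of all and 0.837% of open promoters. The 18 include Psmc3, Psmc6, Psmd2, Psmd4, Psmg1 and Psmg3.

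Of the 14 motifs searched on both strands, GC boxes, GGGCGG, the sites of SP and KLF factors, were the most frequent in the proteasome promoters, with 29 of 49 (59.2%) against 46.1% of all. Among open promoters the order turned, with 60.9% of the proteasome promoters against 63.8% of all. GC boxes lay in a footprint of both libraries in 11 genes (22.4% against 11.2% of all and 17.8% of all open promoters), which were Psma7, Psmb1, Psmc4, Psmc5, Psmc6, Psmd6, Psmd12, Psmd13, Psme1, Psme2 and Psme4. With the whole GC box required inside a footprint, 5 genes remained (10.2%), against 7.12% of all and 11.3% of open promoters. The antioxidant response element was in 7 of 49 (14.3%) against 12.7% of all, in Psmb2, Psmb5, Psmb6, Psmc6, Psmd7, Psmd9 and Psmd12. With all promoter peaks of both libraries searched in place of this window, a search over unequal lengths, it was in 23 of the 46 open proteasome genes (50%), against 32.1% of all open genes, and in a footprint of both libraries in 6.12% of the 49 against 2.37% of open genes and 1.49% of all. This excess was not particular to that element. In the same search ETS letters were in 50% against 28.0% of open genes, and the ISRE core in 23.9% against 13.4%. The CCAAT box, with 43.5% against 56.1%, and the GC box, with 71.7% against 83.4%, went the other way. CCAAT boxes were in 17 (34.7%) against 38.2%. The ISRE core was in 7 (14.3%) against 8.50%, which were Psma4, Psmb3, Psmb4, Psmd4, Psmd7, Psmd9 and Psmg4. The NRF1 letters, GCGCATGCG, were in Psma2 and Psmg1, and the site of Psma2, centred 121 bases before the TSS, lay in a footprint of both libraries. Sites other than GC boxes in footprints of both libraries were found for 8 genes in all. The middle base of the site decided; with the whole site required inside the footprint 4 remained. A match of letters does not show which protein was bound.

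**Figure D4:**
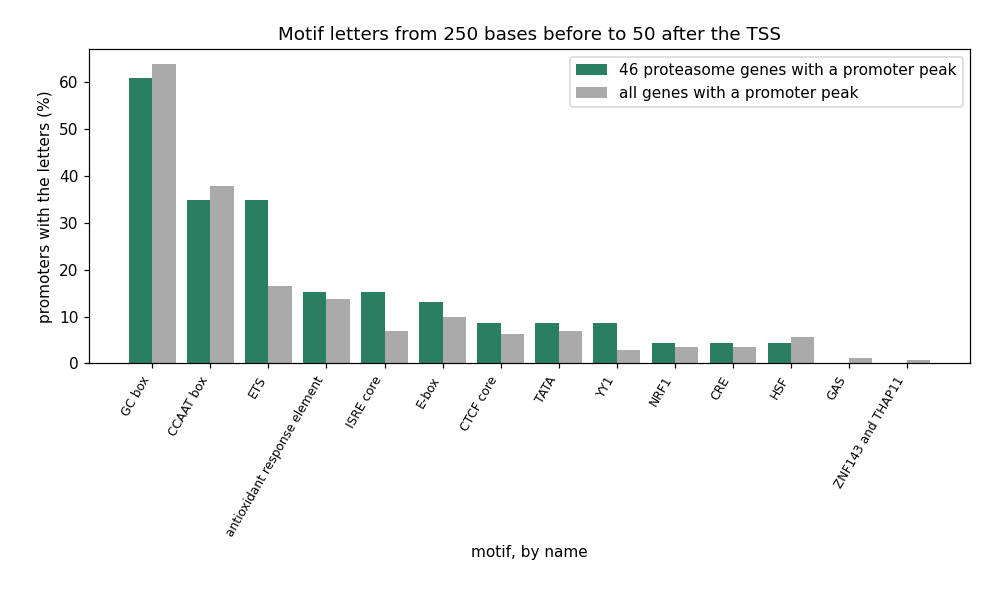
Percent of promoters with the letters of each motif from 250 bases before to 50 after the principal TSS, for the 46 open proteasome genes (left bars) and for all open genes (right bars). ETS letters are in 34.8% against 16.5%, while the GC box is near the level of all open promoters.

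Footprints were then counted over the promoter peaks. At least 1 footprint in both libraries was found for the same 46 of 49 genes, against 60.5% of all genes and 92.9% of other CpG-rich genes. Since only footprints over promoter peaks were counted, these shares follow those of open promoters and are no separate result. In all there were 286 footprints in replicate 1 and 235 in replicate 2, with medians of 5 and 4 per open gene, against 6 and 5 for all open genes. The summed length of all promoter peaks per gene was smaller, with medians of 410 and 376 bases against 596 and 496. This sum grows with the number of peaks and counts bases of overlapping peaks more than once, so it is not the length of single peaks. Per kb of this summed length there were 12.3 and 11.5 footprints against 9.22 and 9.02. Of the footprints, 47.6% and 56.2% overlapped one of the other library, against 38.9% and 48.5% at all promoters. Within 100 bases of a TSS lay 46.5% and 60% of them, against 37.9% and 44.8%. Psmb3 had the most in the library labelled male replicate 2, with 14 in replicate 1 and 12 there, over 3 and 2 peaks. Psmb10 had 9 in replicate 1, against 1 in the library labelled male replicate 2, but these counts cover partly different bases. The higher peak of replicate 1 reached past the 1 kb window. In the library labelled male replicate 2 a separate peak over those bases, with a value of 1.72, lay outside the window and its footprints were not counted.

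Several proteasome promoters are shared with a neighbour. Another protein-coding gene started close enough to share the promoter window for 11 of the 49 (22.4%), against 13.1% of all genes and 20.6% of other CpG-rich genes. Pairs on opposite strands included Psma2 with the mitochondrial ribosomal gene Mrpl32, 75 bases apart, Psmc2 with the chaperone gene Dnajc2, 32 bases apart, Psmb1 with Tbp, the TATA-binding protein gene, 137 bases apart, and Psmd13 with the sirtuin gene Sirt3, 99 bases apart. The others were Psma4 with AY074887, Psma7 with Ss18l1, Psmb9 with Tap1, Psmc5 with Ftsj3, Psme2 with Rnf31, Psmg2 with Cep76 and Psmg3 with Gm26938. In each pair the genes shared at least 1 peak in both libraries, and their highest values were equal except those of Psmb1 and Tbp in replicate 2. Such a value cannot be assigned to either gene. Without the 11, 35 of 38 proteasome genes were open.

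Peaks away from promoters, where enhancers lie, were counted in each gene and 10 kb on either side. A distal peak overlapped no promoter window of any protein-coding gene. Of the 49 genes 26 had a distal peak in both libraries, which is 53.1% against 53% of all genes, a share equal to the background. The sums were 68 in replicate 1 and 80 in replicate 2, and 72.1% and 62.5% of them overlapped a peak of the other library. In 36 and 37 of them the nearest TSS was that of the proteasome gene itself. Among the 200 genes nearest in length, the median percentile of the proteasome genes was 53 and 58.5, against 46.5 in both libraries for all genes. There were 15 genes with none in either library (30.6%), near the 33.5% of all genes, among them Psmb2, Psmb8 and Psmb9.

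**Figure D5:**
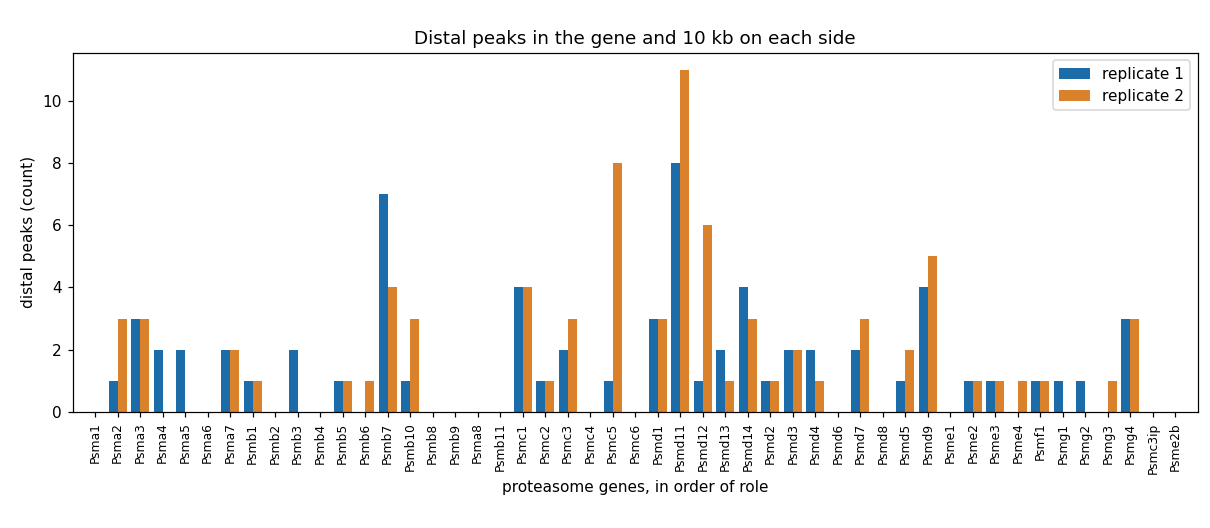
Distal peaks in each proteasome gene and 10 kb on either side, in replicate 1 (left bars) and replicate 2 (right bars), with genes in order of role. Psmd11 has the most, 8 and 11, and Psmc5 differs most between the libraries, with 1 and 8.

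The genes with the most distal peaks were Psmd11, Psmb7 and, by the mean of both libraries, either Psmc5 or Psmd9. Psmd11 had 8 in replicate 1 and 11 in replicate 2, and 7 of the 8 and all 11 lay nearest to Cdk5r1, the activator of the neuronal kinase CDK5 next to it. Psmb7 had 7 and 4, with values up to 1.15 and 0.922. Psmc5 had 1 in replicate 1, against 8 in the library labelled male replicate 2, where they formed a run of weak peaks in Ddx42 and Ftsj3 with values from 0.0774 to 0.219. Psmd9 had 4 and 5.

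The strongest distal peaks found in both libraries were few. The first lay in a coding exon of Psmc2, 1548 bases from its TSS, with 2.52 in replicate 1 and 3.18 in replicate 2, above the promoter values of the gene in both libraries. The next lay 5008 bases upstream of Psmd1, outside genes, with 2.09 and 3.25. Others lay in Pskh1 beside Psmb10 (2.26 and 2.69), 5590 bases upstream of Psma3 (1.75 and 2.44) and near Psmd13 (2.13 and 1.97). The nearest TSS was that of Ctrl, 3021 bases away, for the peak in Pskh1. For the peak near Psmd13 it was that of Cox8b, 2985 bases away. In replicate 1 the median of all distal peaks with a partner was 0.777. The Psmd1 peak is shown because it holds a pair of footprints found in both libraries, in capitals. It is GRCm38 chr1:86059551-86059670, plus strand.
Psmd1 upstream: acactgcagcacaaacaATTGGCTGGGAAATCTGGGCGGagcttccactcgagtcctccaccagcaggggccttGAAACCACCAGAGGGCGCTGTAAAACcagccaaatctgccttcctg

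Other genes of the pathway were read from a list of 25 that the annotation holds. All 25 had a promoter peak in both libraries, against 62.8% of all genes and 94.7% of those with a CpG ratio of at least 0.6. Their medians were 3.18 and 3.11, against 2.27 and 2.15 for all open genes. Nfe2l1, the factor known to raise proteasome genes when the proteasome is blocked, had 3.42 and 3.13, and its relative Nfe2l2 had 1.46 and 0.806. The ubiquitin gene Ubb had 4.05 and 4.06. Adrm1, the ubiquitin receptor gene of the cap, had 3.60 and 3.86, Pomp, the core maturation gene, 2.18 and 2.29, and Vcp, the segregase gene, 3.78 and 3.32. Replicate 1 was higher in 11 of the 25 and the library labelled male replicate 2 in 14, while replicate 1 was higher in 38 of 46 proteasome genes.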

How the data were processed

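Both DNase-seq libraries were used as deposited, and per the file headers and file list the assembly was mm10. The deposited signal in the peak lists is the authors' value per peak; its scaling, the aligner and callers: not given in the sources used here. FDR runs, a kind of p-value or q-value, were deposited for bases under 0.05. Per the deposited file list, peaks were called per library, not pooled. The footprint files' constant column was not used. Genes and TSS came from GENCODE M21, sequences from RefSeq GRCm38.p6, the same build. Overlaps of at least 1 bp were computed with pandas 2.3.3, numpy 2.4.6 and scipy 1.17.1 in Python 3.11.15, and with bedtools 2.31.1, figures with matplotlib 3.10.9. The highest promoter peak of each of the 46 open genes in each library, 92 peaks, was searched with blastn 2.17.0 at 90% identity over 80% of the length, and 0 had another copy. The overlap code was tested on made-up intervals with known answers. All proteasome genes are named, with the genes sharing a promoter, the lists and the extremes of the distal counts; Psmc1 and the strongest distal peaks were chosen after their values were seen. Members and lists were chosen with earlier results of these data known. No test between groups was possible with 1 group.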

Additional observations from a re-analysis of the deposited data

How the results depend on the processing

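The open count of proteasome genes was 46 with either library alone, the shorter list, 2.5 kb windows or TSS tagged basic, and 45 with 0.5 kb windows. The share of other genes, 62.7%, was 64.1% to 65.1% with 1 library left out, 57.3% with the shorter list, 65.0% with 2.5 kb, 61.4% with 0.5 kb, 56.1% with 0.1 kb and 94.7% among CpG-rich ones. The median of other genes, 2.20, was 2.12 to 2.21 with 1 library left out, 2.34 with the shorter list and 2.44 among CpG-rich ones. Immune subunits had a median of 1.60, and 2.49 with 0.5 kb windows, which leave Psmb8 and Psmb9 as open. With 0.1 kb windows 1 of 3 was open. Distal peaks depended on the region. Genes with one in both libraries were 26, but 7 with the gene body alone and 44 with 50 kb; their sum per library, 74, was 15.5 and 275.5, 41.5 with the shorter list and 36.5 with a reciprocal overlap of 50%. Genes with motif sites in footprints of both libraries were 8, and 4 with whole sites. Depth is unknown, so absent peaks may be undetected. No paired analysis was possible because the libraries form 1 group.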
